A study of Homo sapiens with 18 samples.

Results

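The cadherins CDH1 and CDH2 and 8 further genes of epithelial-mesenchymal transition (VIM, ZEB1, ZEB2, SNAI1, SNAI2, TWIST1, FN1 and EPCAM) were examined as a group of 10 genes, out of 19675 protein-coding RefSeq genes with a known strand. The genes were taken by name. For each gene the peaks were read from 3 kb upstream of its RefSeq start to its end on GRCh38, together with the sites that carry its symbol in the deposited tables of differential sites. Trimethylation of histone H3 at lysine 4 (H3K4me3) and at lysine 27 (H3K27me3) had been mapped by chromatin immunoprecipitation sequencing in V16D, a castration-resistant prostate cancer line derived from LNCaP. The cells carried either a control lentiviral vector (V16D/CTL) or a lentiviral vector that expresses the long non-coding RNA H19 from the CMV promoter (V16D/H19). They grew in RPMI1640 with FBS, with 3 replicates per group and mark and a matching input library for each replicate. A single line overexpressing a transgene was thus measured, and all groups share its LNCaP background.

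In epithelial cells E-cadherin (CDH1) joins neighbouring cells at adherens junctions, and EPCAM marks their surface. During epithelial-mesenchymal transition (EMT) the repressors SNAI1, SNAI2, ZEB1 and ZEB2 bind E-box elements and silence CDH1, TWIST1 acts in the same programme, and N-cadherin (CDH2), vimentin (VIM) and fibronectin (FN1) are made in its place. H3K4me3 lies at promoters that are open to transcription, H3K27me3 is laid down by the PRC2 complex over silenced genes, and promoters that hold both marks are called bivalent. In prostate cancer N-cadherin is known as a marker of castration resistance and of lineage change.

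The 10 genes fell into 3 states by the peaks called at them. EPCAM, CDH1, SNAI1, SNAI2 and FN1 had an H3K4me3 peak at the promoter (within 1 kb of the start) and no H3K27me3 peak anywhere in the gene in any library. Of all protein-coding genes, 54.0% had H3K4me3 at the promoter in all 6 libraries and H3K27me3 there in no library. VIM stood close to these, with H3K4me3 in all 6 libraries and a single small H3K27me3 peak in V16D/H19 replicate 2. ZEB1 and TWIST1 carried both marks over the gene in all 6 replicates. CDH2 and ZEB2 lay under H3K27me3, without any H3K4me3 peak in the 3 V16D/CTL libraries. All 6 luminal markers (KLK2, KLK3, FKBP5, TMPRSS2, KRT8 and KRT18) had H3K4me3 at the promoter in all 6 libraries and no H3K27me3 peak. The deposited table listed KLK2 as lower in H3K4me3 (authors' mean log2 concentration 8.05 in V16D/CTL against 6.73 in V16D/H19, covered bases 2664 to 2998 against 2025 to 2078) and TMPRSS2 as higher (10.27 and 10.59, covered bases 6025 to 7500 against 8144 to 9040).

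**Figure D1:**
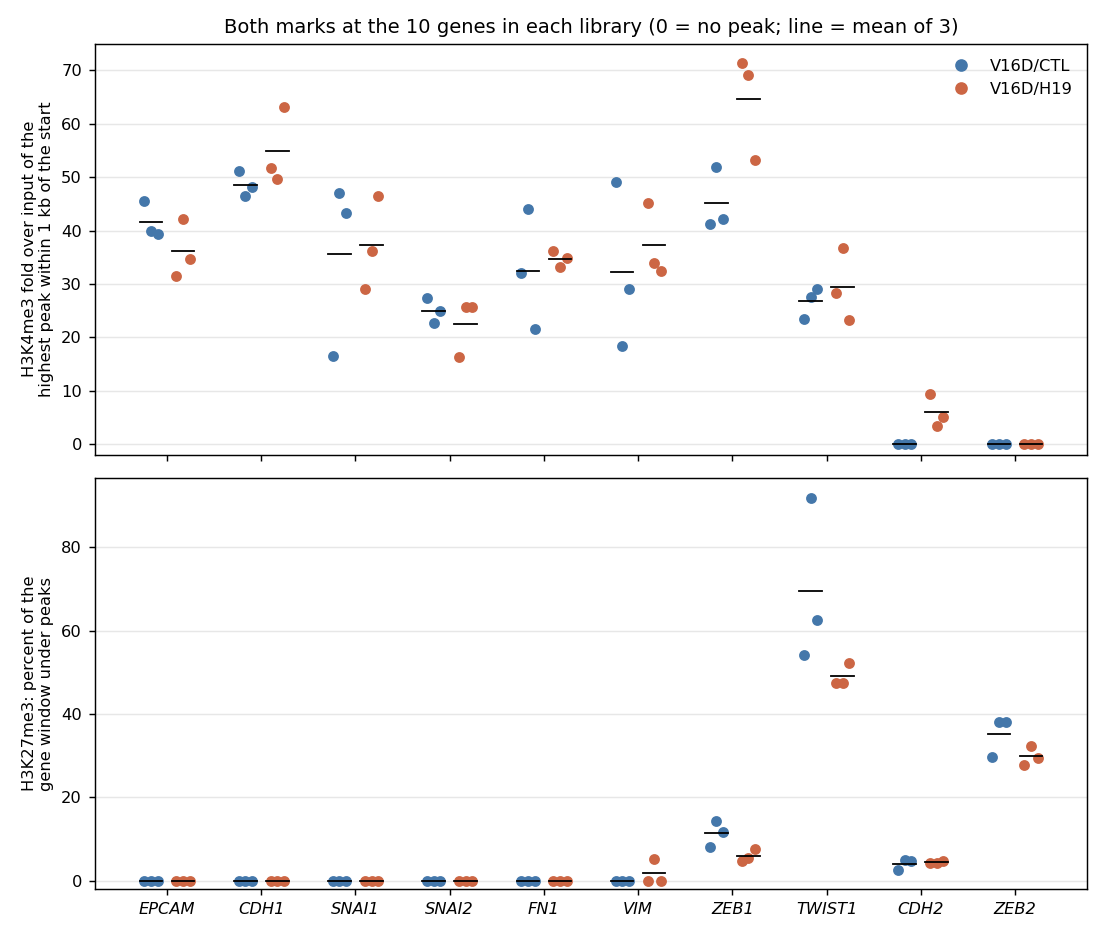
H3K4me3 fold over input of the highest promoter peak (upper panel) and percent of the gene window under H3K27me3 peaks (lower panel) for the 10 genes, with a point for each library and a line at the mean of 3. H3K4me3 was called at CDH2 in the 3 V16D/H19 libraries alone (fold 3.4 to 9.3), and H3K27me3 covered most of the TWIST1 window in V16D/CTL (54.2% to 92.0%) and 47.4% to 52.3% of it in V16D/H19.

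The promoter sequences below run from 250 bases before to 50 bases after the RefSeq start (GRCh38.p14). They are shown because their genes stand for the different states. CDH2 and ZEB2 lay under H3K27me3, FN1 under H3K4me3 alone, and ZEB1 carried both marks over the gene. The H3K4me3 of VIM began downstream of the RefSeq start. The printed ZEB1 stretch lay under H3K4me3 alone, since every H3K27me3 peak of ZEB1 began 1000 bases or more after the start. Capitals mark CpG dinucleotides. RefSeq promoter sequences were matched for 5 of the 10 genes (CDH2, FN1, VIM, ZEB1 and ZEB2).
CDH2 promoter (chr18:28177081-28177380, minus strand): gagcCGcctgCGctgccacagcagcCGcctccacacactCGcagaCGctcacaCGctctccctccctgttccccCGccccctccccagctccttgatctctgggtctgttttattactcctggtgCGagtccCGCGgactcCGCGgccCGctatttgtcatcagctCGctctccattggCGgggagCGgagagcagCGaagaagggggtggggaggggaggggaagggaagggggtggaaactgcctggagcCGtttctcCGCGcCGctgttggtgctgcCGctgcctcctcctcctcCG
ZEB2 promoter (chr2:144520070-144520369, minus strand): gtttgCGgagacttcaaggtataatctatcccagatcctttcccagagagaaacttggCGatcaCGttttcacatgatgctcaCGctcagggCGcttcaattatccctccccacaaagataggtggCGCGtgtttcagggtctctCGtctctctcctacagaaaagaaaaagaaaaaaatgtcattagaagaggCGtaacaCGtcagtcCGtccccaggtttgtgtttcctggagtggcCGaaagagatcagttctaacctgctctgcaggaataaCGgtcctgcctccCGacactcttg
ZEB1 promoter (chr10:31318167-31318466, plus strand): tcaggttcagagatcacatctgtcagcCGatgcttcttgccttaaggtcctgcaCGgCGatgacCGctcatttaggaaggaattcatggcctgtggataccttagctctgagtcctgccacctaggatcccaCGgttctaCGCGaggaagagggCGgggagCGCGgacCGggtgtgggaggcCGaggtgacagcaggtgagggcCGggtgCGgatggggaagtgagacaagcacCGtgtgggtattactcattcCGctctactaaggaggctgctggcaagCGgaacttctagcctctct
FN1 promoter (chr2:215436019-215436318, minus strand): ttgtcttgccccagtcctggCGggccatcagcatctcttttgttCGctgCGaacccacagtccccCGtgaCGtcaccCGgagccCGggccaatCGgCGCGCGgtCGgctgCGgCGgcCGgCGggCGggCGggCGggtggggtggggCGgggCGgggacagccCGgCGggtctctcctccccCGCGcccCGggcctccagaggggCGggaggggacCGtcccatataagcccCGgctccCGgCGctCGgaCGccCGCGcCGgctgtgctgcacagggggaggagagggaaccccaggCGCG
VIM promoter (chr10:17227991-17228290, plus strand): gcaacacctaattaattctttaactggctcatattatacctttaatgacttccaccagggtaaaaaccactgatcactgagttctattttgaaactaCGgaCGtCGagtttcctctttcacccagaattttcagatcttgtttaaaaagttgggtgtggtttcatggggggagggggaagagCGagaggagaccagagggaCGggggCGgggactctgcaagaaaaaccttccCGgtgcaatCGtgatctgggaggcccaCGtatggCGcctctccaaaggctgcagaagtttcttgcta

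FN1 held 38 CpG in its 300 bases, a number that 91.3% of the 35116 promoters in the RefSeq table did not exceed, and the median of the table was 14. CDH2 held 23 CpG (percentile 66.1), ZEB1 17 (percentile 55.5), ZEB2 14 (percentile 51.1) and VIM 10 (percentile 45.3). These numbers hold for the printed starts: further ZEB1 starts in the table held 7 to 35 CpG (percentiles 39.3 to 87.3), and a further CDH2 start held 4 (percentile 29.6). The E-box CACCTG, with its reverse complement CAGGTG, is the element that SNAI and ZEB proteins are known to bind, and 20.6% of all promoters in the table held it. Of the 5 printed stretches only that of ZEB1 held it, once, as CAGGTG beginning 57 bases before the start, and 1 further ZEB1 start held 3 of them. The H3K4me3 peak of CDH2 described next lies further upstream than the printed stretch.

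CDH2 (N-cadherin, chromosome 18, 27932879 to 28177130, minus strand) differed most plainly in H3K4me3. No peak was called in its window in V16D/CTL replicates 1, 2 and 3. In V16D/H19 a peak of 522, 637 and 381 bases was called in replicates 1, 2 and 3, between positions −1156 and −497 relative to the start. These peaks were weak: their fold over input was 9.3, 3.4 and 5.1, at percentiles 32.6, 1.89 and 13.5 of their own lists, and their −log10 q was 13.7, 2.81 and 4.79. The 3 peaks overlapped each other, so that all V16D/H19 libraries and no V16D/CTL library had a call at the same place. With only peaks of a −log10 q of at least 5 the call remained in 1 of the 3 V16D/H19 libraries, and with lists cut to equal length in 2 of them. Such a pattern, a promoter peak in 3 V16D/H19 and 0 V16D/CTL libraries, was found at 42 of 12639 protein-coding genes with an H3K4me3 promoter peak in any library (0.332%). The deposited table of differential H3K4me3 sites listed the CDH2 promoter (28174043 to 28179008) with the authors' mean log2 concentration at 0.72 in V16D/CTL against 4.05 in V16D/H19, a difference of 3.33, larger than or equal to that of 98.4% of the 1857 listed sites. Both values were low beside the V16D/CTL values of the listed TWIST1 and SNAI2 sites (7.98 and 8.52). From so low a value a small amount of signal makes a large log2 difference. Peaks covered 7.67% to 12.8% of the CDH2 site in V16D/H19. No other listed site within 5 Mb of the CDH2 site was higher in V16D/H19 (0 of 1).

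An H3K27me3 peak was called at the CDH2 promoter in all 6 libraries. With only peaks of a −log10 q of at least 5, no H3K27me3 promoter peak remained at CDH2 or at any other member in either group. Within 5 kb of the start it covered 4294, 5408 and 6161 bases in V16D/CTL against 4975, 4560 and 5225 bases in V16D/H19, so the groups overlapped (exact permutation p = 0.6). Every base of the 3 H3K4me3 peaks also lay under an H3K27me3 peak of the same V16D/H19 replicate. The CDH2 promoter therefore had calls of both marks in 3 of 3 V16D/H19 replicates and of H3K27me3 alone in 3 of 3 V16D/CTL replicates. Over the whole gene H3K27me3 covered 6521, 12141 and 11544 bases in V16D/CTL against 10264, 10295 and 11699 bases in V16D/H19 (means 10068.7 ± 3086.8 and 10752.7 ± 819.7, SD, n = 3, exact permutation p = 0.9). At the broad site over the promoter the log2 difference in H3K27me3 fold over input was 0.05 ± 0.08 (SE, 95% interval −0.13 to 0.23, limma).

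**Figure D2:**
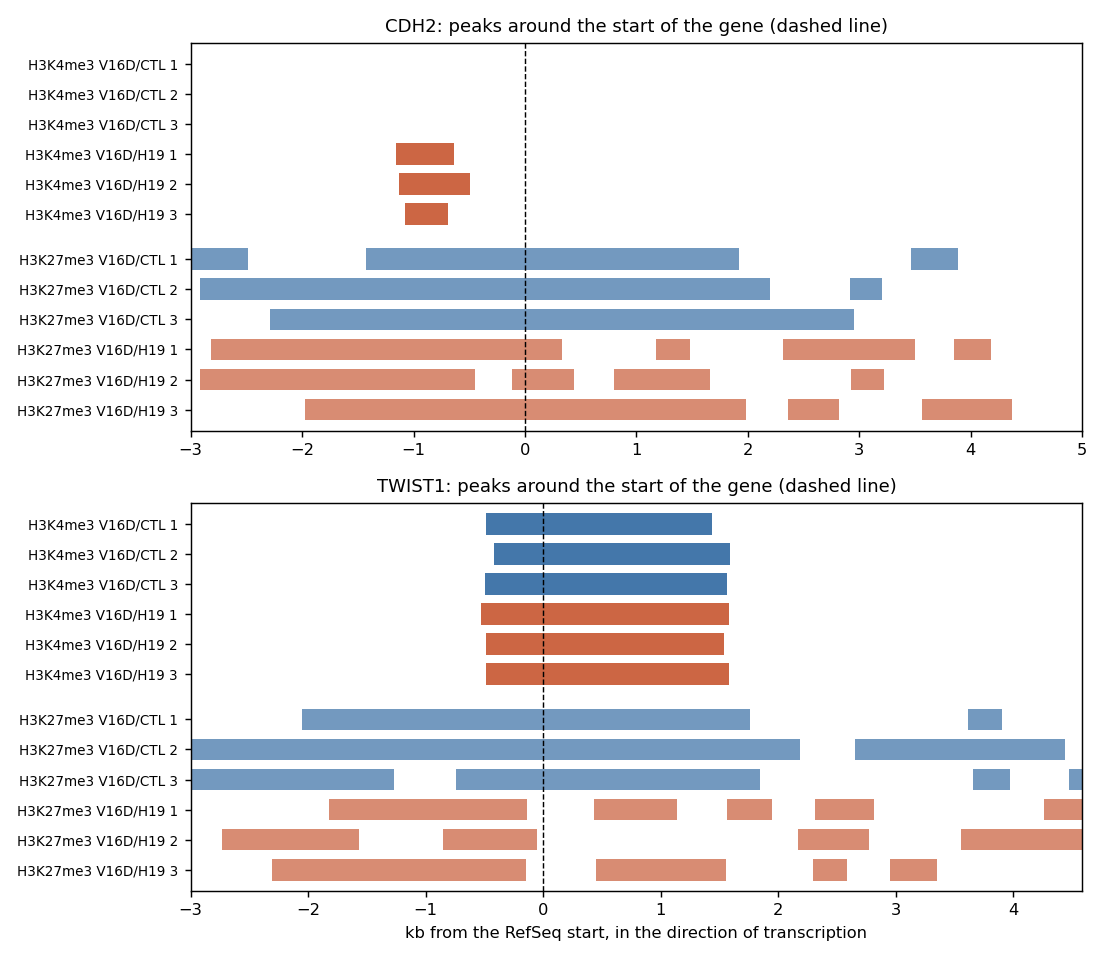
Peaks at CDH2 and TWIST1 in kb from the RefSeq start (dashed line) in the direction of transcription, with a row per library, blue for V16D/CTL and orange for V16D/H19. At CDH2 the H3K4me3 peaks lie only in the V16D/H19 rows and over H3K27me3, and at TWIST1 the longest H3K27me3 peak of the window measured 2785 to 6039 bases in V16D/CTL against 1202 to 2166 bases in V16D/H19.

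TWIST1 (a basic helix-loop-helix factor, chromosome 7, 19113047 to 19117636, minus strand) carried both marks at its promoter in all 6 replicates, a state found at 573 of 19675 protein-coding genes (2.91%). Its H3K4me3 peak spanned the start, with a fold over input of 23.5, 27.6 and 29.0 in V16D/CTL against 28.3, 36.8 and 23.2 in V16D/H19. The groups overlapped, and the log2 difference was 0.07 ± 0.31 (SE, 95% interval −0.57 to 0.72, limma). H3K27me3 covered 4110, 6980 and 4745 bases of the 7590-base window in V16D/CTL against 3601, 3602 and 3967 bases in V16D/H19. All V16D/H19 values were below all V16D/CTL values (means 3723.3 ± 211.0 and 5278.3 ± 1507.5, SD, n = 3, exact permutation p = 0.1, the smallest that 3 against 3 libraries can give). The difference of −1555.0 bases was −704.2 without V16D/CTL replicate 2, the library with the widest coverage.

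The longest H3K27me3 peak of the TWIST1 window was also shorter in V16D/H19. It measured 3816, 6039 and 2785 bases in V16D/CTL against 1684, 1202 and 2166 bases in V16D/H19, with no overlap (exact permutation p = 0.1). The share of all genes without overlap in this length was not counted. The number of peaks was 2, 2 and 4 in V16D/CTL against 5, 4 and 4 in V16D/H19, with overlap at 4 (exact permutation p = 0.3). The height of the mark overlapped too: the fold at the promoter was 3.96 ± 0.465 in V16D/CTL against 3.8 ± 0.161 in V16D/H19 (SD, n = 3, exact permutation p = 0.7), and the log2 difference of the broad site was −0.15 ± 0.09 (SE, 95% interval −0.34 to 0.03, limma adjusted p = 0.66). In V16D/CTL the H3K4me3 peak lay wholly under H3K27me3 in each replicate, and in V16D/H19 52.9%, 21.4% and 70.0% of its bases did. The deposited tables listed TWIST1 for both marks, in opposite directions. For H3K27me3 (19104072 to 19123434) the authors' mean log2 concentration was 8.16 in V16D/CTL against 7.57 in V16D/H19 (difference −0.59). For H3K4me3 (19116048 to 19118522) it was 7.98 and 8.41 (difference 0.43). Within 5 Mb the other 5 listed H3K4me3 sites and the other 10 listed H3K27me3 sites were lower in V16D/H19. Of all listed sites 76.0% (H3K4me3) and 91.5% (H3K27me3) were lower, so lower neighbours were common.

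ZEB1 (a zinc finger repressor, chromosome 10, 31318417 to 31529804, plus strand) had the highest mean H3K4me3 fold of the 10 genes in V16D/H19. The promoter peak stood at 41.3, 51.9 and 42.2 fold over input in V16D/CTL against 71.4, 69.2 and 53.3 in V16D/H19, with no overlap (means 45.1 ± 5.88 and 64.6 ± 9.88, SD, n = 3, exact permutation p = 0.1). These folds lay at percentiles 64.2 to 79.8 of the V16D/CTL lists and 80.9 to 96.4 of the V16D/H19 lists. In the fit over all sites the difference did not pass, with a log2 difference of 0.47 ± 0.27 (SE, 95% interval −0.09 to 1.02, limma adjusted p = 0.795). The share of all genes whose promoter folds had no overlap between groups was not counted. A smaller second peak lay between 1452 and 2506 bases after the start in each library, at 7.46, 8.64 and 4.89 fold in V16D/CTL against 11.0, 10.7 and 5.8 fold in V16D/H19, so the groups overlapped.

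H3K27me3 began about 1 kb after the ZEB1 start and continued far into the gene, and 23.4% to 46.4% of the H3K4me3 bases also lay under H3K27me3. Of the promoter peak 0% to 19.9% was shared, and of the second peak 63% to 100%. Over the window it covered 17462, 30928 and 25177 bases in V16D/CTL against 10043, 11505 and 16276 bases in V16D/H19. The groups did not overlap (means 24522.3 ± 6756.8 and 12608.0 ± 3259.6, SD, n = 3, exact permutation p = 0.1). The number of peaks was 22, 35 and 32 in V16D/CTL against 18, 15 and 18 in V16D/H19. Near the start the groups overlapped: within 5 kb of it the values were 3055, 3479 and 3706 bases in V16D/CTL against 2505, 4001 and 3349 bases in V16D/H19 (exact permutation p = 0.8). The 2 ZEB1 sites with a peak in all 6 libraries, within the first 18 kb, had log2 differences in H3K27me3 fold of −0.01 ± 0.1 and −0.03 ± 0.09 (SE, limma).

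Between 20 and 100 kb into ZEB1, a stretch chosen after the peaks were seen, H3K27me3 covered 7807, 14586 and 11268 bases in V16D/CTL against 1291, 1382 and 5252 bases in V16D/H19, that is 14% and 3.3% of the stretch on average. How often such a stretch differs in this way over all genes was not counted. A region at 62477 to 63481 bases after the start had a peak in 3 of 3 V16D/CTL and 0 of 3 V16D/H19 libraries, as did 2 regions of ZEB2 (70172 to 71237 and 128967 to 131057 bases after its start). These were 3 of the 74 member regions with a peak in at least 2 libraries, against 1.97% of all such regions, and 0 member regions had the opposite pattern, against 0.98%. In ZEB1 the deposited table listed a site at 64693 to 67896 bases (31383110 to 31386313), annotated as 1 to 2 kb from the start of an inner ZEB1 transcript. Its authors' mean log2 concentration was 5.01 in V16D/CTL against 3.48 in V16D/H19, and the difference of −1.53 was as large as or larger than that of 98.3% of the 1140 listed H3K27me3 sites. Peaks covered 0, 2216 and 1445 bases of this site in V16D/CTL against 0 bases in each V16D/H19 library, so V16D/CTL replicate 1 had no call there either. No other H3K27me3 site within 5 Mb was listed.

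**Figure D3:**
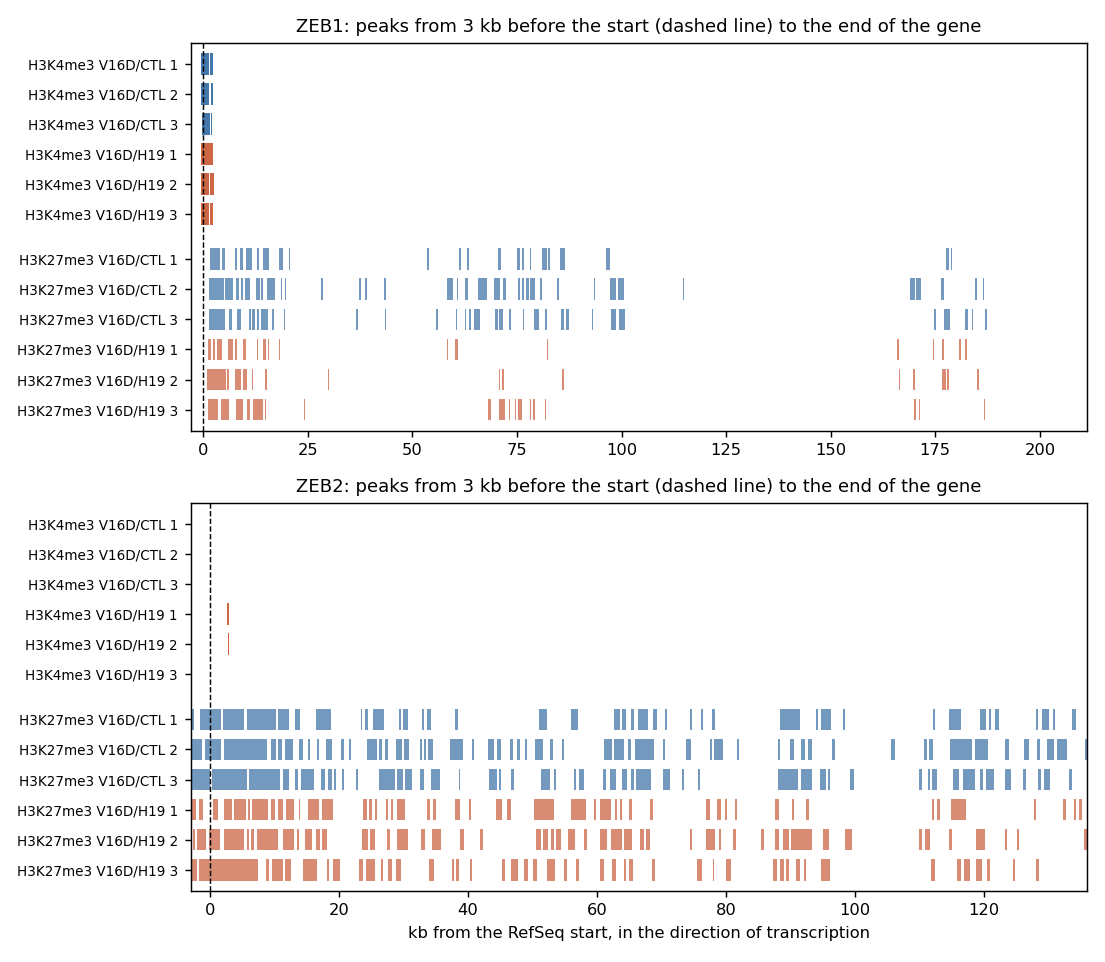
Peaks over ZEB1 and ZEB2 in kb from the RefSeq start (dashed line), with a row per library, blue for V16D/CTL and orange for V16D/H19. Between 20 and 100 kb of ZEB1 the V16D/H19 rows hold 1291 to 5252 covered bases against 7807 to 14586 in the V16D/CTL rows, and at ZEB2 the peaks cover 29.6% to 38.1% of the window in V16D/CTL against 27.7% to 32.4% in V16D/H19.

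ZEB2 (the related repressor, chromosome 2, 144384081 to 144520119, minus strand) had the most H3K27me3 of the 10 genes in covered bases. Its mean over 6 libraries was 45236.8 bases, as much as or more than 99.5% of protein-coding genes. As a mean share of the window, H3K27me3 covered 32.5% at ZEB2 (percentile 98.0) and more at TWIST1 (59.3%, percentile 99.4). At ZEB2 it covered 41094, 52850 and 52927 bases in V16D/CTL against 38572, 45023 and 40955 bases in V16D/H19 (29.6% to 38.1% and 27.7% to 32.4% of the window), and the groups overlapped (exact permutation p = 0.2). Coverage was densest over the first 20 kb, at 71.1% in V16D/CTL against 67.3% in V16D/H19 on average. In the last part of the gene, beyond 100 kb, a stretch also chosen after the peaks were seen, it was 6560, 11852 and 9309 bases in V16D/CTL against 4849, 4331 and 4372 bases in V16D/H19, without overlap. In the stretches from the start to 20 kb and from 20 to 100 kb the groups overlapped. The share of such stretches without overlap over all genes was not counted. No H3K4me3 peak lay within 1 kb of the start in any library. A small H3K4me3 peak at 2643 to 3001 bases after the start was called in V16D/H19 replicates 1 and 2 (fold over input 5.81 and 3.79, 358 and 252 bases), wholly under H3K27me3, and in no other library. Neither deposited table listed a ZEB2 site.

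In covered bases, 2 of the 5 members with an H3K27me3 peak (ZEB1 and TWIST1) were lower in V16D/H19 without overlap and 0 were higher. Among the 5521 protein-coding genes with an H3K27me3 peak, 15.9% were lower and 2.41% higher in this way, so lower coverage without overlap was common. The V16D/H19 libraries also covered less of the genome with H3K27me3, 42.3, 47.5 and 48.4 Mb against 45.1, 58.8 and 62.2 Mb in V16D/CTL (a ratio of means of 0.832). The ratio was 0.705 for TWIST1 and 0.514 for ZEB1. Per Mb covered in the library, a scaling added after the data were seen, ZEB1 held 387.5, 525.8 and 405.0 bases in V16D/CTL against 237.6, 242.2 and 336.3 bases in V16D/H19, still without overlap, where 9.29% of genes were lower in this way. TWIST1 then overlapped between groups (76.3 to 118.7 and 75.8 to 85.2), and ZEB2 overlapped on both scales (means per Mb 887.3 in V16D/CTL and 902.2 in V16D/H19). CDH2 then stood higher in V16D/H19 with no overlap, at 242.8, 216.7 and 241.7 bases against 144.7, 206.4 and 185.7, where 6.54% of genes were higher in this way. Whether the groups overlapped at TWIST1 and CDH2 therefore depended on this scaling, and the part of total coverage in the results was not tested. V16D/H19 also held fewer H3K27me3 peaks with a −log10 q of at least 5 (142 to 189 per library against 510 to 699 in V16D/CTL).

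**Figure D4:**
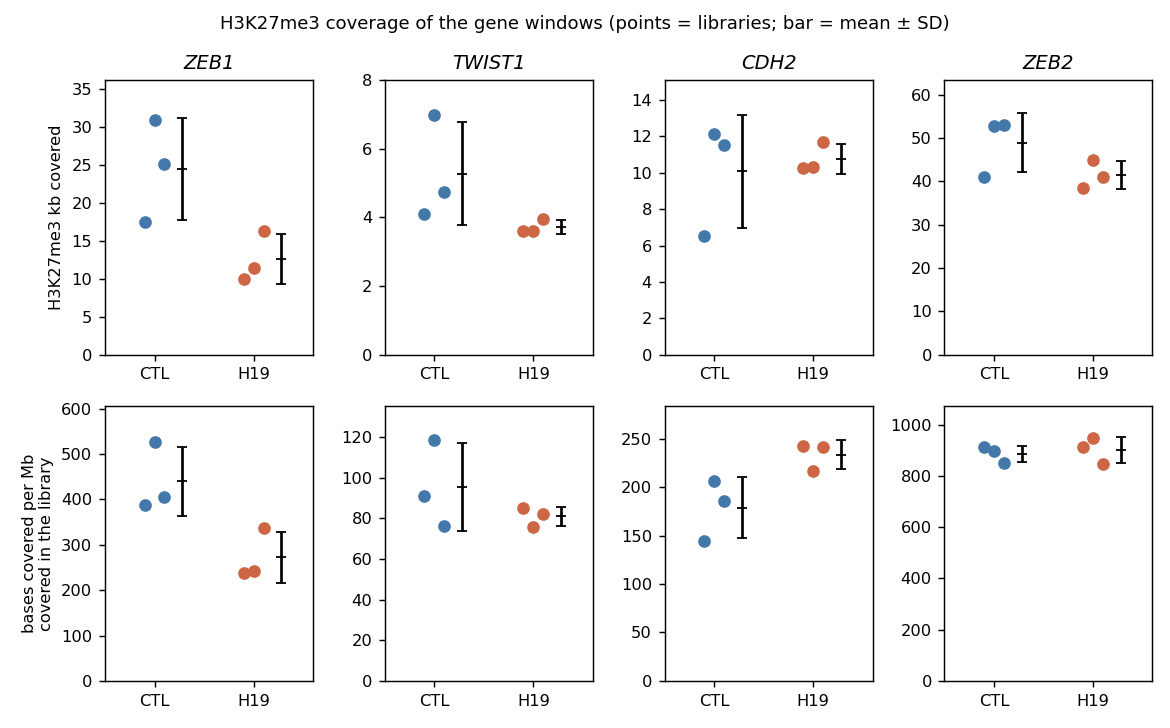
H3K27me3 coverage of ZEB1, TWIST1, CDH2 and ZEB2 in kb (upper row) and in bases per Mb covered in the same library (lower row), with points for libraries and bars for mean ± SD (n = 3). ZEB1 is lower in V16D/H19 without overlap on both scales, TWIST1 only in kb, and CDH2 is higher without overlap only per Mb.

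Among the genes with H3K4me3 alone, CDH1 (E-cadherin, chromosome 16, 68737292 to 68835537, plus strand) had a strong promoter peak at 51.1, 46.4 and 48.2 fold over input in V16D/CTL against 51.8, 49.6 and 63.1 in V16D/H19. The groups overlapped, and the log2 difference was 0.12 ± 0.28 (SE, 95% interval −0.45 to 0.68). A pair of weaker peaks lay in the gene, at 6806 to 7567 and 7685 to 8244 bases after the start, in all 6 libraries (log2 differences 0.02 ± 0.34 and −0.32 ± 0.36, SE). EPCAM (chromosome 2, 47369311 to 47387020, plus strand) stood at 45.5, 39.9 and 39.3 fold in V16D/CTL against 31.5, 42.2 and 34.6 in V16D/H19, with overlap (log2 difference −0.26 ± 0.3, SE, 95% interval −0.87 to 0.35). Both epithelial genes thus had a promoter peak in all 6 libraries, and neither was listed in a deposited table.

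The mesenchymal genes FN1 and VIM carried H3K4me3 in V16D/CTL already. FN1 (fibronectin, chromosome 2, 215360865 to 215436068, minus strand) stood at 32.0, 44 and 21.5 fold over input in V16D/CTL against 36.1, 33.1 and 34.8 in V16D/H19 (log2 difference 0.1 ± 0.32, SE, 95% interval −0.56 to 0.76). Its H3K4me3 covered 2523, 2326 and 2285 bases in V16D/CTL against 2148, 2276 and 1868 bases in V16D/H19, lower without overlap (exact permutation p = 0.1), a difference of −280.7 bases that was −166.0 without V16D/H19 replicate 3. Of the 10 members, all of which had an H3K4me3 peak in at least 1 library, FN1 alone was lower in this measure without overlap and CDH2 alone was higher. Of the 14254 protein-coding genes with an H3K4me3 peak, 5.88% were lower and 8.33% higher in this way. VIM (vimentin, an intermediate filament protein, chromosome 10, 17228241 to 17237593, plus strand) had a peak that began 656 to 895 bases after the RefSeq start and had its summit 2148 to 2225 bases after it. Its fold was 49.1, 18.4 and 29.0 in V16D/CTL against 45.2, 34.0 and 32.5 in V16D/H19, and the V16D/CTL libraries spread over the V16D/H19 range (log2 difference 0.26 ± 0.34, SE). The only H3K27me3 peak of VIM, in V16D/H19 replicate 2, measured 644 bases at 3.72 fold.

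SNAI1 (Snail, chromosome 20, 49982980 to 49988886, plus strand) had a promoter peak at 16.5, 47.1 and 43.3 fold over input in V16D/CTL against 29.1, 36.1 and 46.5 in V16D/H19, with V16D/CTL replicate 1 the lowest of all 6 (log2 difference 0.13 ± 0.37, SE, 95% interval −0.63 to 0.89). SNAI2 (Slug, chromosome 8, 48917598 to 48921429, minus strand) stood at 27.4, 22.6 and 25.0 fold in V16D/CTL against 16.2, 25.7 and 25.7 in V16D/H19, with V16D/H19 replicate 1 the lowest (log2 difference −0.23 ± 0.32, SE, 95% interval −0.88 to 0.43). H3K4me3 covered 43.1% of the SNAI2 window on average over 6 libraries, against 16.4% of that of SNAI1. The deposited table listed the SNAI2 promoter (48918844 to 48922384) as lower in V16D/H19, with the authors' mean log2 concentration at 8.52 in V16D/CTL against 8.16 in V16D/H19 (difference −0.36). The other 7 listed H3K4me3 sites within 5 Mb were lower too (median difference −0.5). Beyond 45 Mb of chromosome 8, a boundary taken from earlier results of these data, 142 of 152 listed sites were lower (93.4%), against 76.0% of all listed sites. The part of this stretch in the SNAI2 result, and in that of GRHL2, a gene of the same stretch given below, was not tested.

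The fold over input was also compared in a fit over every region with a peak in all 6 libraries. At an adjusted p under 0.05, limma called 0 of 15811 H3K4me3 sites (0.0%) and 0 of 10934 H3K27me3 sites (0.0%), and 0 of the 10 H3K4me3 and 18 H3K27me3 sites of the members. At an unadjusted p under 0.05 it had 1049 H3K4me3 sites (6.63%) and 908 H3K27me3 sites (8.3%), of which the members held 0 and 2. Both were ZEB2 sites, and they pointed in opposite directions. The site at 50121 to 54396 bases after the start had a log2 difference of 0.28 ± 0.09 and that at 65855 to 69228 bases of −0.21 ± 0.1 (SE, adjusted p = 0.525 and 0.592). The log2 differences of member sites ran from −0.32 to 0.47 for H3K4me3 (median 0.08, all sites −0.02) and from −0.21 to 0.28 for H3K27me3 (median −0.02, all sites −0.01). The intervals of the H3K4me3 promoter sites reached down to −0.88 and up to 1.02, so changes within that range could not be told from none. CDH2 could not enter this fit for H3K4me3, having no V16D/CTL peak.

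**Figure D5:**
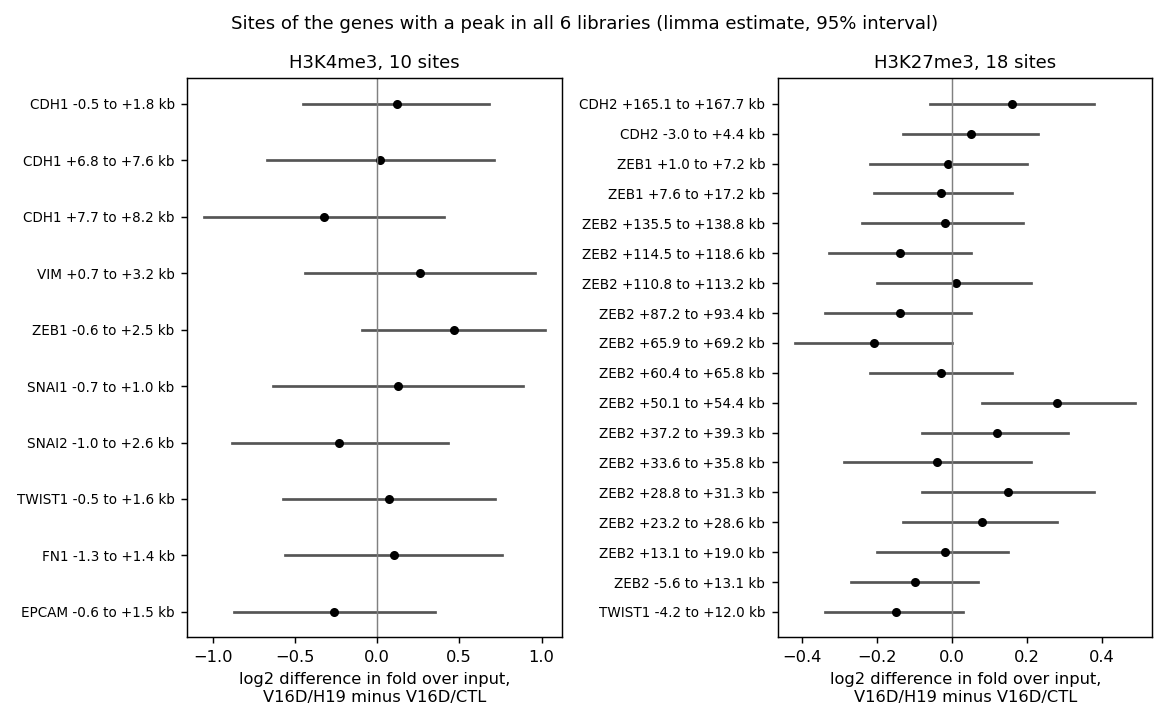
Log2 difference in fold over input (V16D/H19 minus V16D/CTL) with its 95% interval from limma for the 10 H3K4me3 and 18 H3K27me3 member sites with a peak in all 6 libraries, named by their position in kb from the start. The intervals of all but 2 ZEB2 H3K27me3 sites span 0, and no site passed the adjusted threshold.

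Counted over the members, 8 genes in each V16D/CTL library had an H3K4me3 promoter peak, and 9 genes in each V16D/H19 library did, the added gene being CDH2. H3K27me3 at the promoter was called at 3 members (CDH2, ZEB2 and TWIST1) in each library except V16D/H19 replicate 2, where 5 were. Both marks met at the promoter of 1 gene (TWIST1) in each V16D/CTL replicate and of 2, 4 and 2 genes in V16D/H19. CDH2 accounted for the difference in each V16D/H19 replicate, with VIM and ZEB1 added in replicate 2. The ZEB1 call in replicate 2 rested on an H3K27me3 peak that began 1000 bases after the start, at the very edge of the promoter. In the other libraries the first H3K27me3 peak of ZEB1 began 1148 to 1511 bases after the start and was not counted. Counting member sites called in 2 or more libraries, 3 of 12 for H3K4me3 (CDH2, TWIST1 and SNAI2) and 2 of 74 for H3K27me3 (TWIST1 and ZEB1) overlapped a listed differential site. Of all such sites 9.34% and 3.15% did.

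Of 19675 protein-coding genes, 60.8% had H3K4me3 at the promoter in all 6 libraries, 35.8% had it in none, and 6.44% had H3K27me3 there in all 6, and the lists that follow are given beside these shares. Of 21 other cadherin genes, 9 had H3K4me3 at the promoter in all 6 libraries and 7 had H3K27me3 there in all 6, with both in all replicates at 2. No other cadherin had the CDH2 pattern of a promoter peak in 3 V16D/H19 and 0 V16D/CTL libraries. The deposited H3K4me3 table listed 6 of them, 4 higher and 2 lower in V16D/H19. Of all listed H3K4me3 sites, 445 of 1857 were higher. The share of all genes that were listed was not counted, and 9.34% of all H3K4me3 sites called in 2 or more libraries overlapped a listed site. The neuronal cadherin CDH8 had authors' mean log2 concentrations of −0.2 in V16D/CTL against 3.17 in V16D/H19, a difference of 3.37 and so of the size of CDH2. Like that of CDH2, it started from a low V16D/CTL value. CDH4 (2.29 and 4.21) and CDH22 (3.91 and 5.33) were higher as well, and a site assigned to CDH12, though outside the gene, was lower (5.93 and 4.76). CDH8 had no H3K4me3 peak within 1 kb of its RefSeq start in any library, and peaks at its listed site were not counted. Its H3K4me3 coverage over the gene was higher in V16D/H19 on average (means 1628.0 and 2223.0 bases). The groups overlapped (1535 to 1717 bases in V16D/CTL against 1698 to 2712 in V16D/H19). Peak calls did not follow at CDH4, where the only H3K4me3 peak was in V16D/CTL replicate 1 (237 bases). CDH22 had 0 to 258 bases covered in V16D/CTL against 299 to 827 in V16D/H19. For H3K27me3, sites at CDH22 (7.88 and 7.47) and far from CDH7 (5.97 and 5.22) were listed as lower, as were 91.5% of all listed H3K27me3 sites.

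Of 20 epithelial junction and programme genes, 18 had H3K4me3 at the promoter in all 6 libraries and 17 had no H3K27me3 peak in the gene. The H3K4me3 table listed GRHL2, a transcription factor of epithelial identity, at 2 sites (10.79 and 10.51, and 6.38 and 5.26, in V16D/CTL and V16D/H19). It also listed the tight junction gene CLDN7 (10.46 and 10.24). All of these sites were lower in V16D/H19, as were 76.0% of all listed sites. Both GRHL2 sites lie in the stretch given with SNAI2 above, where 93.4% of listed sites were lower. The part of that stretch in the GRHL2 values was not tested. In covered bases GRHL2 was lower too, without overlap, and the junction genes CTNNA1 (2529 to 2641 bases in V16D/CTL against 2667 to 2869 in V16D/H19), CLDN3 (1556 to 1753 against 1772 to 1917) and TJP1 (5779 to 6070 against 6192 to 6365) were higher without overlap, where 5.88% of genes were lower and 8.33% higher in this way. Of the 20 mesenchymal and matrix genes, 8 had H3K4me3 at the promoter in all 6 libraries and 10 in none, and 6 had H3K27me3 at the promoter in all 6. Of these only COL1A1, a collagen chain, was listed, as lower in H3K27me3 (6.84 and 6.28). Of 16 further EMT factors and TGF-beta signalling genes, 10 had H3K4me3 and 4 had H3K27me3 at the promoter in all 6 libraries. The receptor TGFBR2 (8.67 and 8.31) was listed as lower in H3K4me3, and distal sites assigned to PRRX1 (5.81 and 4.83) and TCF3 (7.08 and 6.6) as lower in H3K27me3. All of these values are the authors' mean log2 concentrations, first in V16D/CTL and then in V16D/H19.

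The miR-200 family is known to repress ZEB1 and ZEB2 and to be repressed by them, and its mature sequences are shown to mark the 2 seeds by which its members recognise those targets. Capitals mark the seed, bases 2 to 8, and sequences are from RefSeq (GRCh38.p14). The first 3 share a seed and the last 2 share the other.
hsa-miR-200b-3p: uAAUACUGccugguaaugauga
hsa-miR-200c-3p: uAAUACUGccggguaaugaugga
hsa-miR-429: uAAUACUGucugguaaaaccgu
hsa-miR-200a-3p: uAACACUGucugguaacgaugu
hsa-miR-141-3p: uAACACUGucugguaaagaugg

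MIR200C and MIR141 (chromosome 12) had H3K4me3 within 1 kb of the gene in all 6 libraries and no H3K27me3 peak. MIR200A, MIR200B and MIR429 (chromosome 1) had no H3K4me3 within 1 kb in any library and H3K27me3 there in some, at MIR200A in 3 V16D/CTL and 2 V16D/H19 libraries. In the MIR200B window, from 3 kb upstream to its end, H3K4me3 covered 545 to 751 bases in all 6 libraries. MIR205, a further EMT microRNA, had no peak of either mark in its window. The deposited tables listed the MIR200A locus as lower in V16D/H19 for both marks, H3K4me3 from 7.32 to 6.83 (1157478 to 1170307) and H3K27me3 from 6.57 to 5.95 (1166963 to 1173550) in the authors' mean log2 concentration. The H3K4me3 site also spans MIR200B and MIR429, so a single locus was measured.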

How the data were processed

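H3K4me3 and H3K27me3 were profiled in V16D/CTL and V16D/H19 cells in triplicate, with 6 input libraries that served the authors as controls. The authors called peaks per replicate against its input with MACS2, narrow for H3K4me3 and broad for H3K27me3, on hg38 per the labels. The aligner is not given in the sources used here. The 12 deposited peak lists give the fold over input (a ratio) and the −log10 of the q-value of each peak. The 2 deposited tables, made by the authors with DiffBind and ChIPseeker, give each listed site's mean log2 concentration per group. Their columns of fold changes, p-values and FDR were not used.

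Peaks were read in windows from 3 kb upstream of the RefSeq start (GRCh38.p14) to the gene end, and at promoters within 1 kb of the start, with the strand from RefSeq or, by symbol, from GENCODE. Regions with a peak in all 6 libraries were compared with limma 3.58.1 (trend, log2 fold over input, median-centred, Benjamini-Hochberg over all sites). For H3K4me3 the highest peak of a region was used, for H3K27me3 the length-weighted mean. Covered bases were compared with two-sided exact permutation tests, which cannot give a p below 0.1 here. They set the difference in group means against those of all 20 assignments of the libraries to groups, with replicate libraries as the unit. The code was tested on simulated data.

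Members and lists were chosen with earlier results of these data known. From the pathway lists the text names genes past the limma threshold, with a promoter peak in 3 libraries of one group and 0 of the other, or listed in a deposited table, at most 5 per list by size of difference. Beyond this rule the microRNA genes were named whole, and CTNNA1, CLDN3 and TJP1 for covered bases without overlap. Genes of the other pathway lists without overlap in covered bases were not named on that ground. Peak numbers were 20048 to 21934 (H3K4me3) and 55060 to 72289 (H3K27me3). Reads per library did not enter the analysis and no counting interval was given, and the lack of a peak does not show that a mark was absent. The alternatives were a q-value limit, lists of equal length, other windows, overlaps and normalizations, and leaving out each replicate. The sequence under the H3K4me3 peak of CDH2 was not analysed here, and 1 gene of a pathway list as first fixed is not reported here.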

Additional observations from a re-analysis of the deposited data

How the results depend on the processing

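Values here are the mean over V16D/H19 libraries minus the mean over V16D/CTL libraries. With only peaks of a −log10 q of at least 5, members with an H3K4me3 peak differed by 0.667 in the gene window (1.67 as reported) and by 0.333 at the promoter (1.0 as reported), and with lists of equal length by 1.0 and 0.667. CDH2 then had a promoter peak in 1 and in 2 V16D/H19 libraries, and still in 0 V16D/CTL libraries. With the promoter taken within 3 kb the difference was 1.67, since the ZEB2 peaks then counted. The same q-value limit left 510, 632 and 699 peaks in the V16D/CTL lists of H3K27me3 against 142, 160 and 189 in the V16D/H19 lists. It moved members with an H3K27me3 peak in the window from 0.333 to −0.667. H3K27me3 bases over the member windows moved from −20011.0 to −398.7 and members with both marks from 1.67 to 0.0. At that limit no member kept an H3K27me3 promoter peak in either group, so no member had both marks there. The only H3K27me3 peaks left in member windows were at ZEB1 and ZEB2, in 1 V16D/CTL library each. With each replicate left out in turn, the window counts differed by 1.5 to 2.0 (H3K4me3) and 0.0 to 0.5 (H3K27me3), the promoter counts by 1.0 to 1.0 and 0.0 to 1.0, both marks by 1.0 to 2.0, and covered bases by 342.5 to 1169.5 (H3K4me3) and −29830.7 to −12974.7 (H3K27me3). The limma count for member sites was 0 in every alternative for both marks. Same-numbered replicates did not deviate together (correlations of −0.001, 0.026 and 0.019 for H3K4me3 over 15811 sites), and the replicate block gave 0 member sites and 0 of all sites for each mark, which changed no call. At the ZEB2 promoter the H3K27me3 log2 difference of −0.1 became 0.03 with the highest peak in place of the length-weighted mean, and the cause was not tested. Peaks bound what was measured: an enrichment below the calling limit of a library left no value.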
